A study of Mus musculus with 7 samples.

Results

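The genes described here are 9 chemokine genes of lymphoid organs, out of 21176 genes in the deposited table: the follicle chemokine Cxcl13, the stromal chemokine Cxcl12, the T-zone chemokines Ccl19 and Ccl21a, the atypical (scavenger) receptors Ackr2, Ackr3 and Ackr4, and the signalling receptors Cxcr5 and Cxcr4. They were taken by gene symbol, and all 9 were found. RNA was sequenced from follicular dendritic cells (FDCs), stromal cells that hold antigen in B-cell follicles, sorted by flow cytometry from the popliteal lymph nodes of male mice that had not been immunized and were 8 to 12 weeks old. The mice were wild type (WT, n = 4 samples) or lacked Ngfr (Ngfr KO, n = 3 samples), which encodes p75, a receptor for neurotrophins. Every sample pooled the nodes of several animals. The labels do not say how the Ngfr allele was made or in which cells it is lost.

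Homeostatic chemokines are made by lymph node stroma without infection and set where lymphocytes settle. CXCL13 draws cells with the receptor CXCR5 into follicles, CCL19 and CCL21 draw cells with CCR7 into the T zone, and CXCL12 acts through CXCR4. Atypical receptors bind chemokines and remove them without G protein signalling: ACKR4 takes up CCL19 and CCL21, ACKR3 takes up CXCL12, and ACKR2 takes up inflammatory CC chemokines. In lymph nodes, ACKR4 and ACKR2 are known from lymphatic endothelium, and CXCR5 and CXCR4 from lymphocytes.

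Of the 9 genes, 7 had a normalised value of 1 or more in 3 or more samples and were tested. Ccl19 rose and Ackr4 fell in Ngfr KO, and the other 5 tested genes (Cxcl13, Cxcl12, Ccl21a, Ackr3 and Ackr2) did not pass the threshold, an adjusted p-value under 0.05 in limma. These 2 calls among 7 genes stand beside 34.2% of all 8326 genes tested, 18.3% called higher and 15.8% called lower, so the share of called genes is near that background. Cxcr5 and Cxcr4 did not pass the filter.

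The promoters of the most abundant of these genes and of the 2 called genes are shown because the non-canonical NF-κB pathway, driven by the lymphotoxin receptor, is known to act on homeostatic chemokine promoters. Each is the 250 bases before the RefSeq start on GRCm38.p6, on the strand of the gene. Capitals mark matches on either strand to the NF-κB consensus or to the RelB-type κB consensus that RelB and p52 prefer. The Cxcl13 window is chr5:95956689-95956938 (plus strand), the Ccl19 window chr4:42756366-42756615 (minus strand) and the Ackr4 window chr9:104126644-104126893 (minus strand). GENCODE M21 places the first base of Ccl19 (42756577) and of Ackr4 (104126933) farther upstream than RefSeq does. By that annotation the whole Ackr4 window, with its match, lies inside the gene, as does the part of the Ccl19 window nearest the RefSeq start.
Cxcl13: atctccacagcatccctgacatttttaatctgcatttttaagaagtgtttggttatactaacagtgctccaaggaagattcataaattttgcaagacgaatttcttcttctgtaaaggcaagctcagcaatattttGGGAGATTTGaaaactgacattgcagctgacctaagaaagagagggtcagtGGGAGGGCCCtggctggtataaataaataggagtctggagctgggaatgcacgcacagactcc
Ccl19: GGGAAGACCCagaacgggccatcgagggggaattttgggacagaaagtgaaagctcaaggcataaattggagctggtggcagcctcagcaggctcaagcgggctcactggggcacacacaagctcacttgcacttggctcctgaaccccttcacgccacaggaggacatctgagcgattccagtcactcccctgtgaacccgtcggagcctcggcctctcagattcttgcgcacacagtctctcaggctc
Ackr4: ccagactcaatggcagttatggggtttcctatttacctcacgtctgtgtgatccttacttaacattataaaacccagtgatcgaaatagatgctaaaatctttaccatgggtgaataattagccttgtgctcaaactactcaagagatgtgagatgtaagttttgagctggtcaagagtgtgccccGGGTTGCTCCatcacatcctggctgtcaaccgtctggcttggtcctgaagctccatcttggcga

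In the Cxcl13 window the RelB-type match spans bases 114 to 105 before the start, and an NF-κB consensus match spans bases 63 to 54. In Ccl19 the NF-κB consensus was matched on the opposite strand at bases 250 to 241, and in Ackr4 on the gene's own strand at bases 64 to 55. Of the 9 genes, 8 had a promoter in the table (Cxcr5 did not); 4 of these held the NF-κB consensus (Ackr2 also), against 23.2% of 32851 promoter windows, and 1 held the RelB-type consensus, against 0.317%. The matches to the 2 motifs did not overlap in any of these windows. The 1 RelB-type match is that in Cxcl13. Its share is not a test, since the motif may have been defined from promoters that include this one, which was not checked here. A match describes letters only, and binding was not measured here.

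The libraries held 17244925 to 18873542 reads in WT and 20741770 to 21538400 in Ngfr KO, so every Ngfr KO library was deeper. A value of 1 stood for 230.1 to 294.8 reads, depending on the library. The targeted gene Ngfr had 97 to 298 reads in WT and 46 to 104 in Ngfr KO, with values that did not overlap (WT 0.377 to 1.30, Ngfr KO 0.184 to 0.353). Its edgeR log2 change was -1.55 (adjusted p = 0.0574; DESeq2 -1.57, adjusted p = 0.0135), and the values do not show which exons the remaining reads cover. All 12 listed FDC markers, such as Clu and Mfge8, were called higher in Ngfr KO (11 with edgeR), and their summed value was 954.5 to 2325.3 in WT, against 5060.2 to 6258.3 in Ngfr KO. All 10 tested markers of blood endothelium (summed value 142.8 to 185.8 in WT, against 35 to 64.8 in Ngfr KO, led by Plvap) and all 5 tested markers of lymphatic endothelium were called lower. Summed perivascular markers were 20.9 to 55.3 in WT, against 42.4 to 71.3 in Ngfr KO (2 of 4 tested called higher), high endothelial venule markers 90.9 to 213.8, against 118.1 to 612.3 (0 of 1), and myeloid markers 27 to 87, against 38.8 to 59 (2 of 3 higher). The myeloid sum was led by Marco, with a mean of 61.2 in WT and 24.8 in Ngfr KO (not called). Adgre1, Itgax and Itgam, also listed as myeloid, stayed at 0.164 or lower in every sample, so the sum is not a measure of myeloid cells. The 2 called myeloid markers, Lyz2 (mean 2.81 and 13.5) and Cd14 (1.57 and 7.31), went the other way from Marco, so this sum mixes opposite changes. For Lyz2 the groups overlapped, Ngfr KO replicate 3 stood highest (28.1), and edgeR did not call it (adjusted p = 0.0576). The share of each cell type and the RNA per cell cannot be told apart in sorted bulk samples.

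Cxcl13 was by far the most abundant of these genes. Its normalised value was 859, 2356, 1811 and 2905 in WT replicates 1 to 4 and 2731, 2352 and 5277 in Ngfr KO replicates 1 to 3. WT replicate 1 was the lowest and Ngfr KO replicate 3 the highest, and the groups overlapped. It took 1.28% of all reads in WT replicate 1, 2.41% to 4.3% in the other WT libraries, and 3.22% to 6.27% in Ngfr KO. Per kilobase of exon, Cxcl13 ranked first of all genes in 6 of 7 libraries and 5th in WT replicate 1. Cxcl13 (ENSMUSG00000023078) lies on chromosome 5 from 95956951 to 95961068, plus strand (mm10, GENCODE M21). Means were 1983 ± 872 over the 4 WT samples and 3453 ± 1591 over the 3 Ngfr KO samples (SD). The log2 change was 0.84 (95% interval -0.18 to 1.87, limma adjusted p = 0.180), an interval that holds both no change and a rise of more than 1. The fit with quantile normalization gave 0.24 and that with the replicate number as a block 1.07, neither called. Quantile normalization sets each value by its rank in the library, so a gene near the top of every library can change little in that fit.

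Ccl19, one of the pair of ligands of Ccr7, rose in Ngfr KO. Its normalised value was 20.1, 27.8, 33.4 and 52.6 in WT replicates 1 to 4 and 65.8, 66.6 and 100.1 in Ngfr KO replicates 1 to 3. Every Ngfr KO sample lay above every WT sample, as was so, in 1 direction or the other, for 40.9% of all genes tested. Means were 33.5 ± 13.9 over the 4 WT samples and 77.5 ± 19.6 over the 3 Ngfr KO samples (SD), a fold of 2.31. By limma, the log2 change was 1.24 (SE 0.29, adjusted p = 0.00777), and edgeR on recovered reads, which called 15.2% of 16751 genes, gave 1.27 (adjusted p = 0.0213). Ccl19 was called under all 16 alternatives. Its gene (ENSMUSG00000071005) spans 42754525 to 42756577 on chromosome 4, minus strand, inside 4930578G10Rik on the other strand, whose value was at most 0.0644 in any sample.

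Ccl19 reads could be shared with close copies of the gene. By symbol, 1 was found, the unprocessed pseudogene Ccl19-ps1, with values of 0.592 to 1.42 in WT, against 1.17 to 2.66 in Ngfr KO. In limma its log2 change came to 0.58 (SE 0.20, adjusted p = 0.0432), on a scale where the pseudocount of 1 shrinks changes of values this low, and the groups overlapped. The fold of means was 2.02, and edgeR gave a log2 change of 1.07 that was not called (adjusted p = 0.0627).

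Ccl19 is made by T-zone reticular cells as well as by follicular stroma, so its level was set beside both marker lists. The summed value of the 12 T-zone reticular markers, such as Pdgfra and Il7, was 25.5 to 38.9 in WT, against 31.0 to 40.9 in Ngfr KO, with 2 of 8 tested markers called higher (Pdgfra and Il7) and 1 lower (Thy1). With edgeR neither Pdgfra (adjusted p = 0.0828) nor Il7 (adjusted p = 0.0622) was called, and Thy1 was. The ratio of Ccl19 to that sum was 0.789 to 1.35 in WT, against 1.61 to 2.63 in Ngfr KO, without overlap. The difference was 0.94 on the log2 scale (two-sided exact permutation p = 0.0286, which is the lowest that 35 splits can give; 0.143 adjusted over 5 such ratios). Against the summed FDC markers the ratio overlapped between groups: 0.0143 to 0.0242 in WT, against 0.0106 to 0.0198 in Ngfr KO, a difference of -0.44 (exact permutation p = 0.200, adjusted 0.333). Cxcl13 likewise showed 0.779 to 1.49 in WT, against 0.376 to 1.04 in Ngfr KO against the summed FDC markers, a difference of -0.87 (exact permutation p = 0.143, adjusted 0.333). Most of the FDC sum was Clu (mean 1121.9 in WT and 2991.6 in Ngfr KO) and Mfge8 (291.5 and 1453.1). The ratios to that sum therefore rest largely on these 2 genes. These 5 ratios, which include Ackr4 and Ccl21a below, were chosen after the values were seen.

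Ccl21a, the other ligand of Ccr7 and in lymph nodes a product of T-zone stroma, high endothelium and lymphatics, varied most among the chemokines. Its normalised value was 16.9, 6.81, 9.51 and 73.5 in WT replicates 1 to 4 and 19.7, 14.6 and 3.26 in Ngfr KO replicates 1 to 3. WT replicate 4 stood far above the rest and Ngfr KO replicate 3 was the lowest. The SD was 118% of the mean in WT (n = 4) and 67.1% in Ngfr KO (n = 3). The log2 change was -0.71 (95% interval -2.18 to 0.76, limma adjusted p = 0.430), and it was -0.03 without WT replicate 4 and -0.02 without Ngfr KO replicate 3. Ccl21a (ENSMUSG00000094686) spans 42772860 to 42773993 on chromosome 4, minus strand, also inside 4930578G10Rik. Near-identical copies of Ccl21a exist in the mouse genome. No other deposited gene has a symbol that starts with Ccl21, and copies under other names were not looked for. How reads shared with such copies were counted is not known.

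Cxcl12, a chemokine of reticular, perivascular and endothelial cells, did not pass the test. Its normalised value was 27.8, 37.6, 56.1 and 75.7 in WT replicates 1 to 4 and 48.3, 111.2 and 35.5 in Ngfr KO replicates 1 to 3. Ngfr KO replicate 2 was the highest, and the other Ngfr KO samples lay within the WT range. The log2 change was 0.32 (95% interval -0.53 to 1.17, limma adjusted p = 0.538), and without Ngfr KO replicate 2 it was -0.15. The gene (ENSMUSG00000061353) lies on chromosome 6 from 117168535 to 117181367, plus strand.

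**Figure D1:**
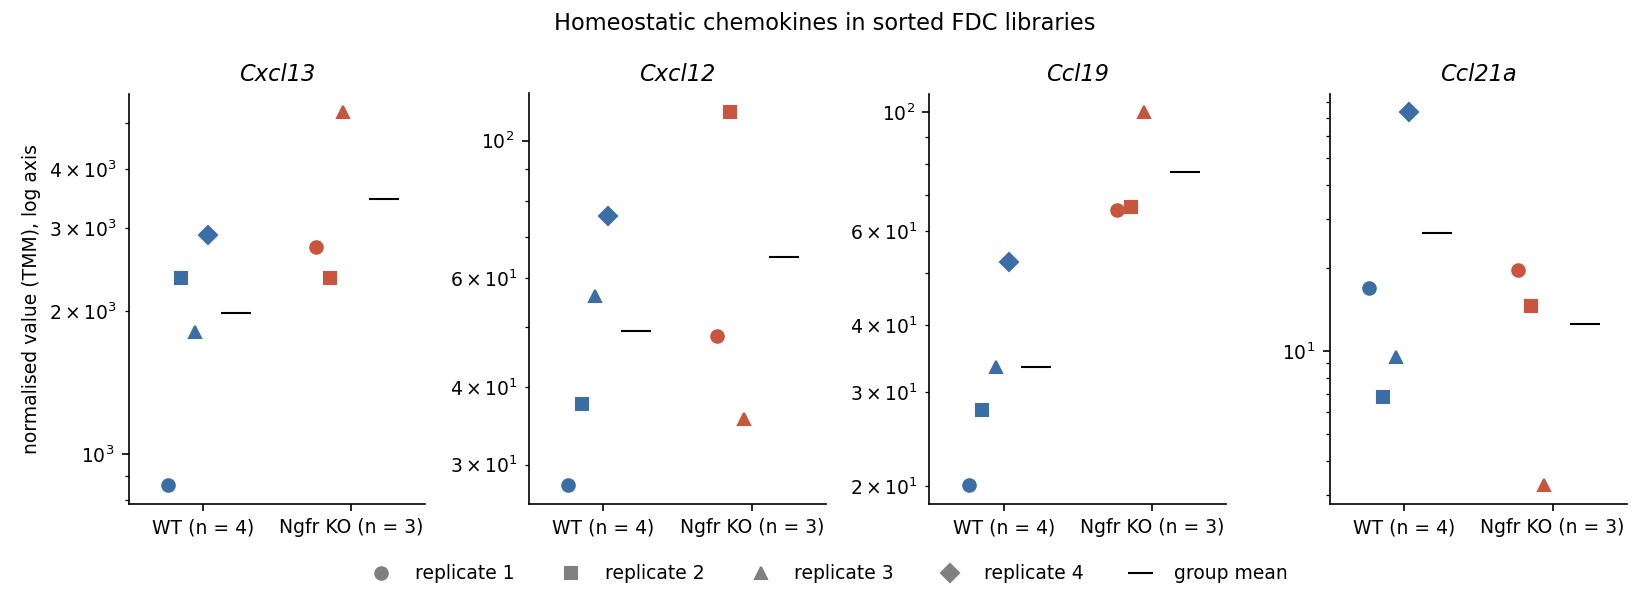
Normalised value (log axes) of 4 chemokines in WT (blue) and Ngfr KO (red) libraries; each symbol is 1 library, with its shape giving the replicate number, and dashes are group means. Ccl19 is the panel without overlap (WT at most 52.6, Ngfr KO at least 65.8), and Ccl21a shows WT replicate 4 at 73.5.

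Ratios within a library do not depend on its scaling. Cxcl13 was 42.8 to 84.7 times the value of Ccl19 in WT and 35.3 to 52.7 times in Ngfr KO, with overlap. The log2 ratio differed by -0.43 (exact two-sided permutation test, p = 0.143, 0.257 adjusted over 3 ratios). Ccl21a to Ccl19 was 0.245 to 1.40 in WT, against 0.0326 to 0.299 in Ngfr KO, a log2 difference of -2.05 (exact permutation p = 0.171, adjusted 0.257), which became -1.06 without Ngfr KO replicate 3. Only in WT replicate 4 was the Ccl21a value above that of Ccl19. Cxcl13 to Cxcl12 was 30.9 to 62.7 in WT, against 21.1 to 148.5 in Ngfr KO, a log2 difference of 0.51 (exact permutation p = 0.571, adjusted 0.571), which became -0.19 without Ngfr KO replicate 3. None of the 3 ratios thus had an adjusted p-value under 0.05 in the exact permutation test. With 35 splits the lowest p this test can give, before adjustment, is 0.0286. After adjustment over 3 ratios, 1 ratio alone could not fall under 0.05 even at that p. The test therefore does not show that the ratios were unchanged.

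Ackr4, the scavenger of Ccl19 and Ccl21, fell. Its normalised value was 14.8, 9.27, 32.1 and 20.4 in WT replicates 1 to 4 and 8.21, 8.09 and 1.56 in Ngfr KO replicates 1 to 3. The groups did not overlap, though WT replicate 2 lay close to the upper 2 Ngfr KO samples, and Ngfr KO replicate 3 stood apart below. Means were 19.1 ± 9.8 over the 4 WT samples and 5.95 ± 3.81 over the 3 Ngfr KO samples (SD), a fold of 0.311. By limma, the log2 change was -1.62 (SE 0.45, adjusted p = 0.0166). The call was lost without Ngfr KO replicate 3 (-1.01, limma adjusted p = 0.0569), without a filter (0.0967), with edgeR on recovered reads (-1.59, adjusted p = 0.0846) and with DESeq2 (-1.61, adjusted p = 0.0943).

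Markers of lymphatic endothelium, a cell type known to express Ackr4, moved with it. Their summed value was 156.9, 130.2, 80.4 and 64.7 in WT replicates 1 to 4 and 43.2, 39.0 and 19.9 in Ngfr KO replicates 1 to 3. All 5 tested markers were called lower, among them Prox1, the lymphatic master regulator (log2 change -1.72, SE 0.21, limma adjusted p = 3.2e-04), and none of the 6 in the table was at 0 in every sample of a group. Lyve1, a hyaluronan receptor, was the most abundant, with a mean value of 43.6 in WT and 17.8 in Ngfr KO, groups that overlapped, and no call with edgeR (adjusted p = 0.0975), which called 4 of the 6 markers lower. The ratio of Ackr4 to the sum was 0.0944, 0.0712, 0.400 and 0.315 in WT and 0.190, 0.208 and 0.0784 in Ngfr KO. These ratios overlapped and differed by -0.23 on the log2 scale (exact two-sided permutation test, p = 0.857, adjusted 0.857). Within WT, the libraries with the higher marker sums (replicates 1 and 2) had the lower Ackr4 values. The part of lymphatic cells in the Ackr4 result was not tested beyond this ratio. Ccl21a had ratios of 0.0523 to 1.14 in WT, against 0.164 to 0.455 in Ngfr KO to the same sum, a difference of 0.87 (exact permutation p = 0.486, adjusted 0.607). That difference was 1.8 without WT replicate 4 and 0.32 without WT replicate 2.

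**Figure D2:**
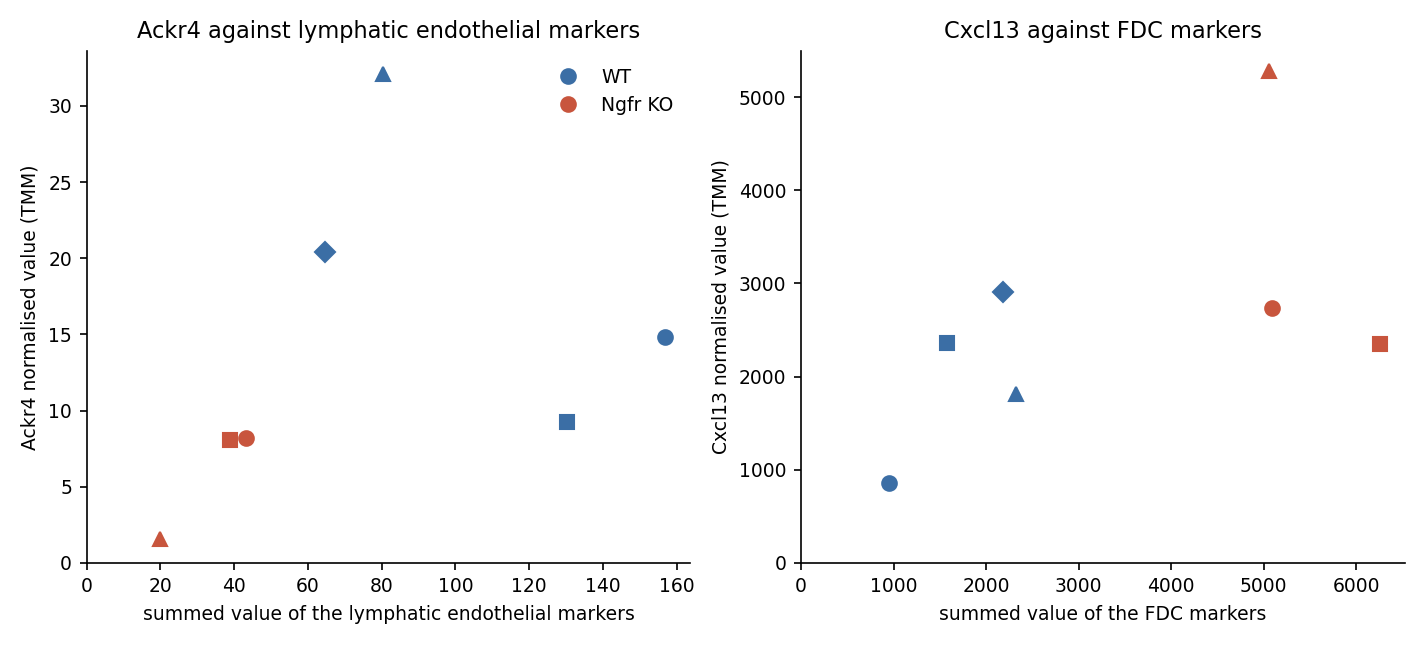
Left, normalised value of Ackr4 against the summed value of the lymphatic endothelial markers; right, Cxcl13 against the summed FDC markers; each symbol is 1 library, with shapes for replicate numbers 1 to 4 (circle, square, triangle, diamond). The 3 Ngfr KO libraries lie at 43.2 or lower on the lymphatic axis and at 5060.2 or higher on the FDC axis, apart from all WT libraries on both.

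Ackr4 (ENSMUSG00000079355) is annotated on chromosome 9 from 104084157 to 104126933, minus strand, wholly inside Acad11 on the plus strand. The libraries do not mark strand per the kit named in the labels, so reads of the 2 genes in shared exons cannot be told apart. Acad11 had values of 0.488 to 1.11 in WT, against 0.563 to 0.925 in Ngfr KO, below every Ackr4 value.

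The remaining atypical receptors did not pass the test. Ackr3, the scavenger of Cxcl12, had normalised values of 2.74, 1.93, 9.47 and 3.75 in WT replicates 1 to 4 and 3.09, 2.42 and 3.86 in Ngfr KO replicates 1 to 3. WT replicate 3 stood above all other samples, and the Ngfr KO values lay within the WT range. The log2 change was -0.24 (95% interval -0.98 to 0.49, limma adjusted p = 0.591), and 0.13 without WT replicate 3. Ackr2 had normalised values of 1.28, 0.794, 1.27 and 0.862 in WT and 1.16, 0.834 and 0.601 in Ngfr KO. The groups overlapped, and the log2 change was -0.14 (95% interval -0.49 to 0.21, limma adjusted p = 0.512). Only 3 samples reached a value of 1 for Ackr2, so the pseudocount of 1 shrinks its change. Ackr3 (ENSMUSG00000044337) spans 90203980 to 90216751 on chromosome 1, and Ackr2 (ENSMUSG00000044534) spans 121898355 to 121911074 on chromosome 9, both on the plus strand.

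The signalling receptors did not pass the filter, with a value of 1 or more in 1 library for Cxcr4 and in 0 for Cxcr5. Per kilobase of exon, Cxcr4 ranked 3862 to 8259 and Cxcr5 10132 to 15299 among the 21176 genes, depending on the library. Cxcr5, the receptor for Cxcl13 on B cells and follicular helper T cells, had 42 to 97 reads in WT and 15 to 103 in Ngfr KO. Its normalised values were 0.237, 0.363, 0.183 and 0.225 in WT and 0.374, 0.278 and 0.0601 in Ngfr KO, so that Ngfr KO replicate 3 was the lowest of all. The edgeR log2 change was 0.01 (SE 0.66, adjusted p = 0.996). Cxcr4, the receptor for Cxcl12, had 97 to 247 reads in WT and 207 to 402 in Ngfr KO. Its normalised values were 0.377, 0.925, 0.617 and 0.839 in WT and 0.751, 1.36 and 0.873 in Ngfr KO, with overlap and an edgeR log2 change of 0.61 (SE 0.38, adjusted p = 0.309).

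B-cell and T-cell markers were present at low levels beside these receptors. The summed value of 11 B-cell markers, led by Cd79a, was 18.8 to 32.3 in WT, against 12.7 to 51.3 in Ngfr KO. Ngfr KO replicate 3, with the lowest Cxcr5 value, also had the lowest B-cell sum, and Ngfr KO replicate 2, with the highest Cxcr4 value, had the highest. The other extremes did not match. Ngfr KO replicate 1 had the highest Cxcr5 value (0.374) with a B-cell sum of 28.5, within the WT range. The Cxcr4 value of Ngfr KO replicate 3 (0.873) also lay within the WT range. For 10 T-cell markers, led by Cd3g, the sums were 4.01 to 12.2 in WT, against 4.86 to 10.5 in Ngfr KO. Their part in the receptor values was not tested. Cxcr5 (ENSMUSG00000047880, chromosome 9, 44511787 to 44561877, minus strand) overlaps Bcl9l on the other strand by 110 bases. Cxcr4 (ENSMUSG00000045382) spans 128588199 to 128592293 on chromosome 1, minus strand, and overlaps no other gene of the table.

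**Figure D3:**
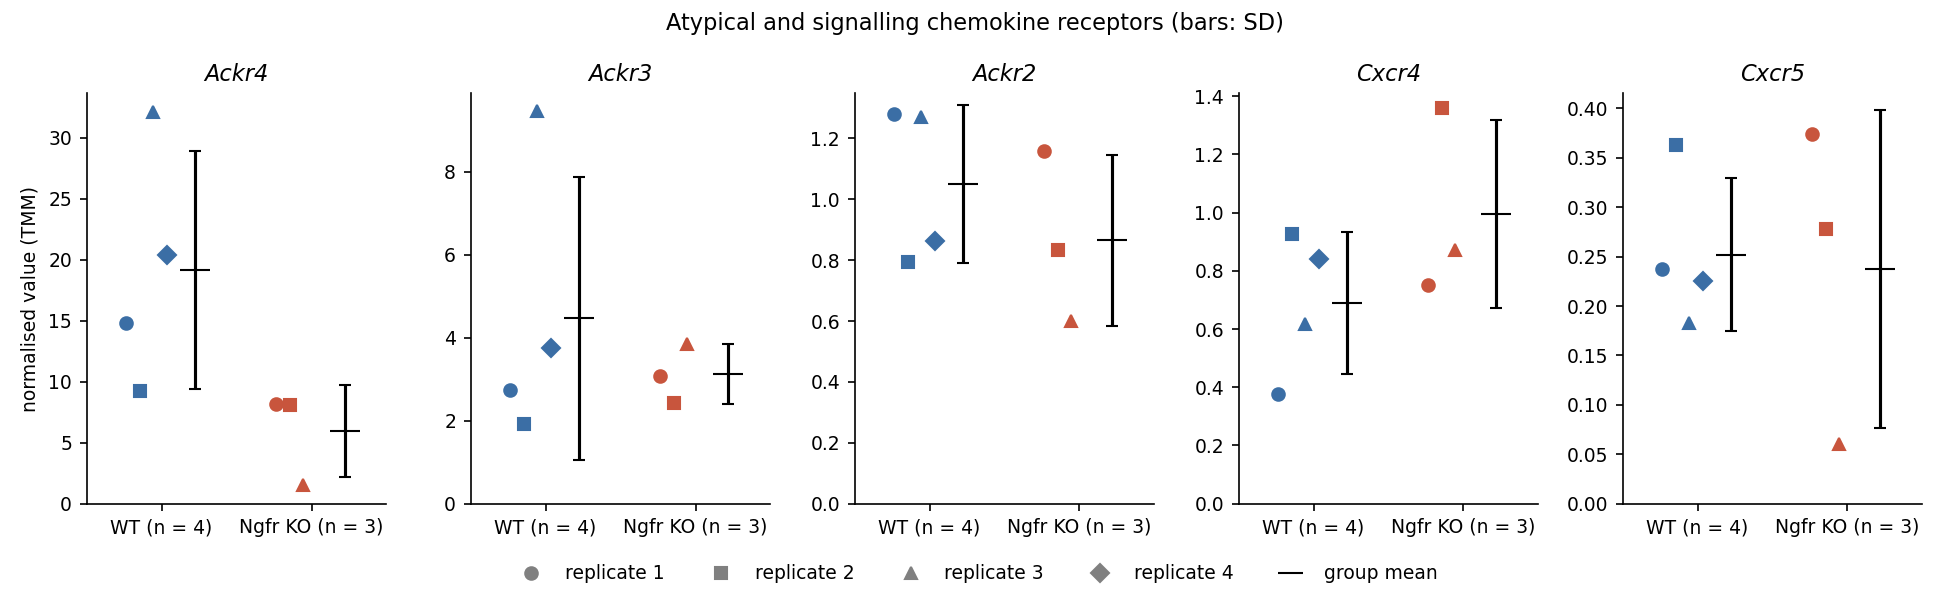
Normalised value of 5 receptors in WT (blue) and Ngfr KO (red) libraries on axes that start at 0; symbols are libraries with shapes for replicate numbers, and dashes with bars are means ± SD. Ackr4 is the panel without overlap (WT at least 9.27, Ngfr KO at most 8.21), and Cxcr5 stays under 0.375 throughout.

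**Figure D4:**
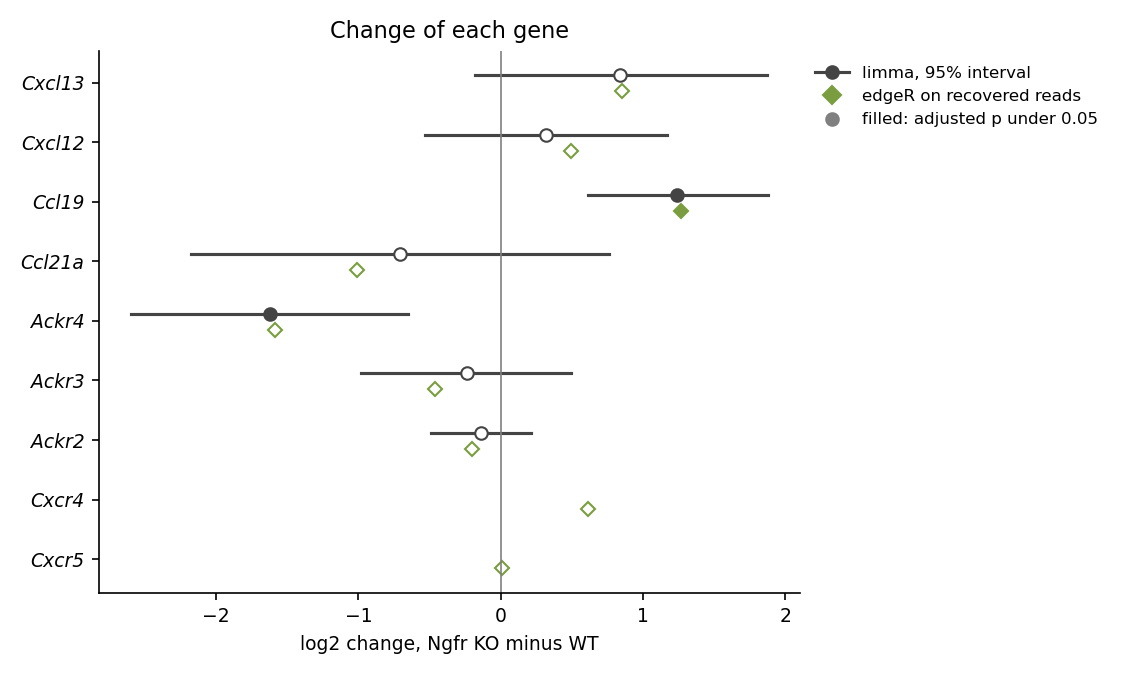
Log2 change of the 9 genes, Ngfr KO minus WT: circles with 95% intervals from limma on log2(value + 1) and diamonds from edgeR on recovered reads, filled where the adjusted p-value was under 0.05. The intervals of Ccl19 (0.61 to 1.88) and Ackr4 (-2.60 to -0.65) leave out 0, and Ccl19 alone is filled for both tests; Cxcr4 and Cxcr5 have only the edgeR value.

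Levels of different genes were compared per kilobase of exon. In WT the order of mean values per kilobase was Cxcl13 (1724 ± 758), Ccl19 (38.6 ± 16.0), Ccl21a (30.7 ± 36.2), Cxcl12 (6.03 ± 2.59), Ackr4 (3.56 ± 1.82), Ackr3 (1.34 ± 1.02), Cxcr4 (0.381 ± 0.136), Ackr2 (0.336 ± 0.0831) and Cxcr5 (0.0756 ± 0.0233) (SD, n = 4). The step from Cxcl13 to Ccl19 held in every library with a wide gap. Ccl19 was above Ccl21a in 3 of 4 WT libraries with overlapping ranges, and in all 3 Ngfr KO libraries without overlap (Ccl19 75.9 to 115.5, Ccl21a 3.75 to 22.6). The ranges of Ccl21a and Cxcl12 overlapped in both groups. Ackr4 was above Ackr3 in 4 of 4 WT libraries and in 2 of 3 Ngfr KO libraries, again with overlapping ranges. Cxcr4 and Ackr2 overlapped in WT, with Cxcr4 higher in 2 of 4 libraries, and did not overlap in Ngfr KO, where Cxcr4 was higher in 3 of 3. The exon length is the union of all annotated exons, 8176 bases for Cxcl12 and 5380 for Ackr4, so a gene read mainly from a short isoform is understated.

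**Figure D5:**
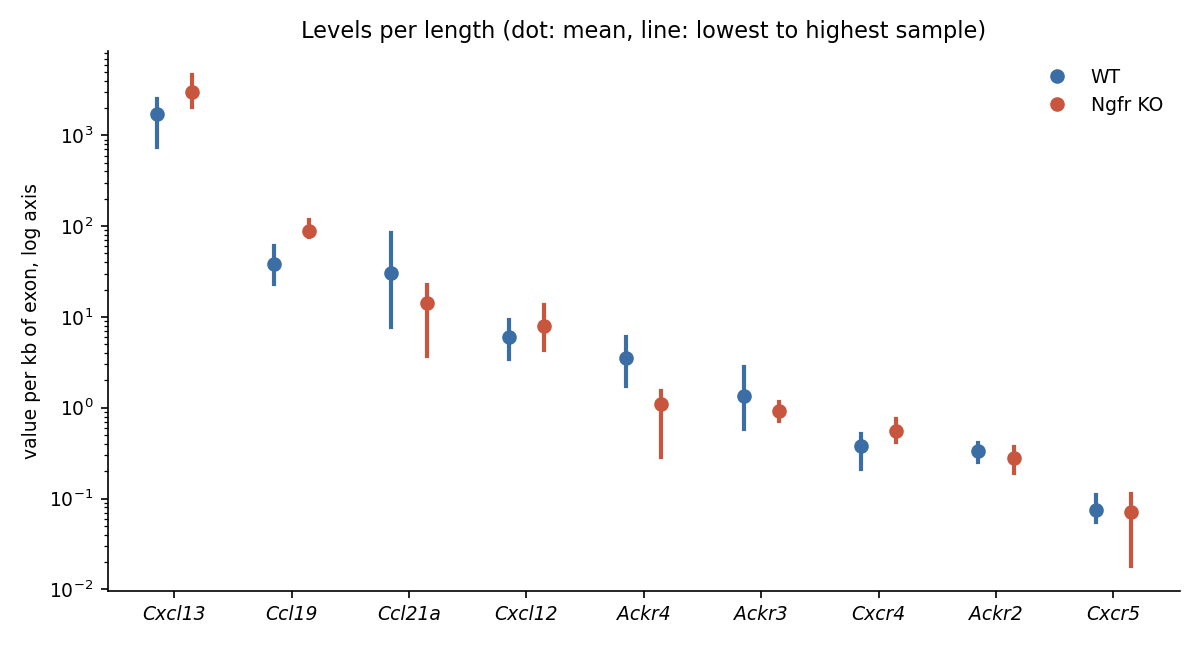
Value per kilobase of exon (log axis) for the 9 genes in WT (blue) and Ngfr KO (red); dots are means and lines run from the lowest to the highest library. Cxcl13 stands above all others, from 747 to 2526 in WT, against 2045 to 4589 in Ngfr KO, and Cxcr5 is the lowest.

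The genes upstream of homeostatic chemokines were examined as a list of lymphotoxin and NF-κB inputs. Of its 16 genes, 14 were tested, and 2 were called higher and 2 lower, beside 34.2% of all genes tested that were called in either direction, so the share in the list is no higher than that background. The median log2 change was -0.12, against 0.02 over all genes tested. The 4 called genes are given as single genes. Nfkbia, the inhibitor IκBα that NF-κB itself induces, rose from 112.5 to 233.3 (mean values, log2 change 1.1, SE 0.29, limma adjusted p = 0.0144). Relb, the partner of p52 in the non-canonical pathway, rose from 5.97 to 9.29 (0.55, SE 0.19, limma adjusted p = 0.0449, edgeR adjusted p = 0.0616). Ltb, the membrane lymphotoxin subunit made mainly by lymphocytes, fell from 5.11 to 2.19 (-0.92, SE 0.18, limma adjusted p = 0.00330). Nfkb1, which encodes p105 and p50, fell from 6.10 to 3.37 (-0.70, SE 0.15, limma adjusted p = 0.00480). The receptor gene Ltbr (-0.08, SE 0.17) and Nfkb2 (-0.04, SE 0.18) were not called.

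Other homeostatic chemokines were scarce or had no row. The 11 listed symbols matched 8 rows, with Ccl27a in more than 1, and a symbol without a row has no value rather than a low one. Of 11 listed symbols, 1 was tested: Cxcl16, a transmembrane chemokine for cells with CXCR6, rose from 14.3 to 32.1 (log2 change 1.13, SE 0.19, limma adjusted p = 0.00153). Among 14 other chemokine receptors, 3 passed the filter, and limma called 0 (0 also at an unadjusted p under 0.05). These were Ccr7, the receptor for Ccl19 and Ccl21 (-0.53, SE 0.27, limma adjusted p = 0.139), Ccrl2 (0.18, SE 0.18) and the atypical receptor Ackr1 (-0.06, SE 0.19). On recovered reads, edgeR called 1 of the 14, Cxcr6, with mean values of 0.0982 in WT and 1.04 in Ngfr KO (log2 change 3.51, adjusted p = 0.0490); it lies outside the rule for named genes and was chosen after its values were seen.

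Genes that carry the signal of chemokine receptors were examined next. Of 18 in the table, 10 were tested, and limma called 0 higher and 7 lower, beside 18.3% higher and 15.8% lower over all genes tested. The median log2 change was -0.52, against 0.02 over all genes tested, and whether the list differs from other genes was not tested. Rgs16, a brake on G protein signalling, fell from 3.40 to 0.865 (log2 change -1.17, SE 0.26, limma adjusted p = 0.00569). The β-arrestin gene Arrb1 fell from 7.27 to 3.05 (-1.02, SE 0.17, limma adjusted p = 0.00135). Gnb1, a G protein β subunit, fell by 0.92 (SE 0.18, limma adjusted p = 0.00341) and Elmo1, which links receptors to Rac, by 0.84 (SE 0.22, limma adjusted p = 0.0136). The others called lower were Gnb2, Grk2 and Grk5 (edgeR adjusted p = 0.0625 for Grk5), whereas Gnai2, the main inhibitory α subunit, had a mean value of 23.8 in both groups (0.02, SE 0.20). The blood and lymphatic endothelial marker sums given above were lower in the same libraries, and their part in this list was not tested.

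Genes of chemokine presentation and cleavage, mostly heparan sulfate proteoglycans and proteases, were mixed. Of 23 in the table, 13 were tested, and 1 was called higher and 1 lower, a smaller share than the 34.2% called over all genes tested. The median log2 change was 0.08, against 0.02 over all genes tested. Sdc2, a cell-surface heparan sulfate proteoglycan, rose from 2.98 to 9.09 (1.37, SE 0.24, limma adjusted p = 0.00178). Hspg2, the basement membrane proteoglycan perlecan, fell from 1.07 to 0.373 (-0.60, SE 0.14, limma adjusted p = 0.00705).

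Within genotypes, Cxcl13 and Ccl19 moved together across libraries (Pearson r = 0.874 over 7 samples after each genotype's mean of log2(value + 1) was taken off). The pairs furthest from 0 after that, among the pairs of the 7 tested genes, were Cxcl13 with Ackr2 (-0.750), Ackr2 with Ackr4 (0.715) and Cxcl12 with Ackr4 (0.653). Over all genes tested, the closest patterns were those of Fam50a, Apex1 and Spib for Cxcl13 (r = 0.979, 0.979 and 0.976), and of Dnajb14, 1700025G04Rik and Hcfc2 for Ccl19 (0.996, 0.992 and 0.985). For Ccl21a they were Cep120, Psmg1 and Sap30bp (0.989, 0.979 and 0.954), and for Cxcl12 Nagpa, Crtap and Trip10 (0.995, 0.991 and 0.988). All genes of a sample share its library, depth and scaling, and these correlations describe 7 points, picked as the highest among 8326 genes.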

How the data were processed

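RNA from sorted FDCs was amplified with SMART-Seq v4 and made into libraries with Nextera XT, per the labels' protocols. The submitters' processing notes name bcl2fastq 2.20.0.422 and build mm10; the aligner, counter and annotation are not given in the sources used here. Per the file, the deposited values are a normalised signal for each gene, which the authors call TMM (a scaling by library size and composition), with gene length not divided out. In each of 7 columns 100% of the values were whole multiples of 1 step (within 0.1 reads), so the reads were recovered. Genes with under 3 reads in all are not in the table. Identifiers were matched to GENCODE M21 (GRCm38, the assembly behind mm10): 21137 matched and 39 did not.

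Genotype and replicate number came from the sample titles. Ngfr KO was compared with WT across all genes whose value was 1 or more in 3 or more samples, with limma 3.58.1 in R 4.3.3 (lmFit, eBayes with trend) on log2(value + 1), two-sided, with Benjamini-Hochberg adjustment; genes under 0.05 were called, and log2 changes are on that scale unless edgeR or DESeq2 is named. edgeR 4.0.16 (quasi-likelihood test, filterByExpr) and DESeq2 1.42.0 were run on the recovered reads, which are not independent molecules. Exact permutation tests counted, over 35 splits, differences at least as large in size. On simulated data with 200 genes changed 4-fold, limma recovered 99.5% with 9.13% of 219 calls unchanged genes among 8185 tested. With no gene changed it called 0, as did edgeR and DESeq2. The simulated counts were drawn independently, with the same dispersion for all genes and no difference in cell content between groups. They therefore do not give the error rate of the calls in these libraries. The genes, lists and tests were chosen with earlier results of these data known. Named genes are the 9 members, Ngfr, at most 4 called genes a list and direction with the largest change, the leading gene of a marker list, copies of Ccl19 and Ccl21, and the 3 closest patterns per chemokine; any further gene was picked with its values in view. The other lists, on perivascular, high endothelial and myeloid cells, had summed values that overlapped between genotypes. Alternatives were pseudocounts of 0.1 and 5, no filter, a value of at least 10, median ratio scaling, quantile normalization, edgeR, DESeq2, the replicate number as a block and leaving out each replicate.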

Additional observations from a re-analysis of the deposited data

Results flagged for a closer look

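Ccl21a in WT was set apart by 1 sample. Replicate 4 had a value of 73.5 and the other WT samples 6.81 to 16.9, so that the gap to its nearest neighbour took 0.849 of the group's range, past Dixon's 95% criterion. This share is of values without log. On the log2 scale of the fits the gap takes a smaller share of the range, and the criterion was not applied there. Of 12 results looked at (9 genes and 3 ratios in WT), 1 passed it, where chance gives 0.6 for normal and independent results. The 3 ratios reuse some of the 9 genes, so the results are not independent. In the same library Cxcl13, Ccl19 and Cxcl12 had their highest WT values (2905, 52.6 and 75.7). The summed T-zone reticular markers were highest there (38.9, against 25.5 to 27.2 in the other WT samples), as were the summed perivascular markers (55.3, against 20.9 to 37.4). Within the T-zone sum Col1a2 was highest there (9.56, against 2.87 to 3.35), whereas Il7 (5.04) and Pdpn (3.64) lay within the range of the other WT samples. The summed high endothelial venule markers were also highest there (213.8, against 90.9 to 163.8), nearly all of it Glycam1 (213.2), whereas Sele was lowest there (0.0801, against 0.269 to 1.26) and Selp (0.454) was below WT replicate 1 (0.864). The summed lymphatic endothelial markers were lowest in that library (64.7, against 80.4 to 156.9). The part of these cell types in the Ccl21a value was not tested.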

How the results depend on the processing

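Ccl19 was called under all 16 alternatives, with log2 changes from 1.03 to 1.48 and adjusted p-values from 9.98e-04 to 0.0495. Ackr4 kept its direction in all 16 (-1.93 to -1.01) and was called in 12. Of the 9 genes, 2 were called as reported, and 1 (Ccl19) without a filter, with edgeR and with DESeq2; leaving out 1 replicate gave 1 to 2, the 1 being without Ngfr KO replicate 3. Over all genes, the count of 2844 became 535 (359 higher, 176 lower) when a value of at least 10 was required, since 1297 genes were then tested, and 1614 to 3006 when 1 replicate was left out, with 1870 without WT replicate 1, 1803 without Ngfr KO replicate 1 and 1614 without Ngfr KO replicate 2. Of the pathway list genes, 14 were called as reported, 9 without a filter and 2 with a value of at least 10, which tested 6 of them. What caused the remaining changes was not tested.

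Directions turned only for results that were not called. Cxcl12 was -0.15 without Ngfr KO replicate 2 and up to 0.66 without the other replicates. Ackr3 ran from -0.48 to 0.13 (without WT replicate 3), and Cxcr5 was -0.02 without a filter. The Cxcl13 to Cxcl12 ratio ran from -0.19 to 1.22. The ratio of Ackr4 to lymphatic markers ran from -0.65 to 0.22 when 1 replicate was left out, and was 0.07 with the replicate number as a block. The replicate numbers are not stated to pair the samples. The deviations of same-numbered samples correlated at 0.298, -0.0593 and -0.0108, and those of differently numbered samples at -0.2 to 0.111. So few values cannot show whether the samples were paired. With the replicate block 2717 genes were called, Ccl19 and Ackr4 among them. The Cxcr5 change rests on 15 to 103 reads a library (edgeR SE 0.66); counting error and spread between replicates were not separated in that error.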
